A study of Mus musculus with 36 samples.

Results

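The splicing machinery and further genes of the same families are described here through 80 of the 40205 gene features counted in each library. Members were the genes whose symbols name SR proteins (Srsf), hnRNP proteins (Hnrnp), Sm and U1/U2 snRNP proteins (Snrp), subunits of the SF3A and SF3B complexes (Sf3a, Sf3b), U2AF (U2af), pre-mRNA processing factors (Prpf) or LSm proteins (Lsm). Of 82 symbols with these stems, 1 pseudogene and the imprinted Snrpn were left out. The symbol alone decided, so the set also holds genes outside the spliceosome, such as Lsm11 of the U7 snRNP. The members comprised 20 hnRNP, 13 PRPF, 13 LSm, 11 SR, 11 Sm and U1/U2 snRNP, 9 SF3 and 3 U2AF genes, and all 80 were found by symbol in the annotation, on 18 chromosomes, with 1 on the X chromosome.

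The RNA came from neural stem cells (NSCs) of fetal C57BL/6J mice at gestational day 12.5, taken from the dorsal telencephalic neuroepithelium that forms the isocortex. The labels give the genotype as WT, and the methods name the colony as Ai14, a Cre-dependent fluorescent reporter strain, for all groups. Tissue was pooled by sex within each of 3 pregnancies (sets 3, 4 and 5), giving 3 female and 3 male cultures grown as neurospheres and used at passages 7 to 10, so that a culture is many passages away from the fetal tissue and each litter stands for itself once per sex. For 5 days each of the 6 cultures received medium with 0 (control), 120 (moderate) or 320 mg/dL (high) ethanol, with fresh medium on day 3. From every treatment, total RNA was sequenced after ribosomal RNA depletion from the cells and from the extracellular vesicles (EVs) shed into the medium, for 18 EV and 18 cell libraries, with 6 of each at each dose. EVs were what passed a 0.2 µm filter, stayed on a 100 kDa membrane and pelleted in the ultracentrifuge, which enriches for small vesicles but does not separate them from other particles of that size.

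Introns are removed from pre-mRNA by the spliceosome, which is built anew on each intron from small nuclear ribonucleoproteins (snRNPs). U1 marks the 5′ splice site, U2AF the 3′ splice site, the SF3 complexes anchor U2 at the branch point, and the PRPF proteins carry the U4/U6 and U5 particles and the rearrangements that lead to catalysis. SR proteins mostly promote exon inclusion and hnRNP proteins often oppose it, and splice choices change widely as neural stem cells become neurons. The libraries measure the transcripts that encode these proteins, not the proteins, the snRNAs or splicing itself.

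EV libraries held 0.959 to 5.51 M counts (1 M is 1000000 counts; median 3.83 M) and cell libraries 26.6 to 55.3 M (median 37.8 M). In 6 EV libraries the total was under 2 M, namely all 3 of the set 4 female culture, the 120 and 320 mg/dL libraries of the set 3 male culture and the control of the set 3 female culture. The median EV count was under 50 for 38 of the 80 members, so their EV values carry a large counting error. Of 10 NSC markers, 9 were detected in cells, at a summed 2623 to 4164 CPM (counts per 1000000, scaled between libraries by TMM), against 917 to 1352 in EVs, and Sox2 was listed at 0 in all 36 libraries, for a reason that was not tested. Neuronal markers summed to 427 to 877 CPM in cells and 199 to 342 in EVs, oligodendrocyte-lineage markers to 281 to 569 and 193 to 402, and astrocyte markers to 19.7 to 248 and 14.7 to 139. In every cell library, 2 of 6 neuronal, 1 of 4 astrocyte and 0 of 4 oligodendrocyte-lineage markers stayed under 1 CPM. Transcripts of some of these markers were thus present, but a sum can rest on few of them and does not show which cell types were there. Microglial markers stayed at or below 0.582 CPM in cells and 11.7 in EVs, endothelial markers at or below 2.17 and 13.6, and erythroid markers at or below 0.0274 and 1.7. The part of other cell types, if present, in the results below was not tested.

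The promoters of several members share short sequence features, and 6 of them are printed here because their genes are described in the results that follow. A RefSeq start on GRCm38.p6 was matched by symbol for 68 of the 80 members, and the unmatched members were not searched. The 250 bases before each start were searched on both strands, beside the same window of all 27025 promoters in the set used. The core of the ETS-family motif, CCGGAAG, was found in 18 member promoters (26.5%) against 7.05% of all promoters, and in 6 of 7 SF3 promoters (85.7%). The CCAAT box occurred in 31 (45.6%) against 34.5%, and in 12 of 18 hnRNP promoters (66.7%). The GC box GGGCGG was found in 45 (66.2%) against 32.9%, in 10 of 11 SR promoters (90.9%), while TATAAA was found in 5 (7.35%) against 13% and the E-box CACGTG in 5 (7.35%) against 6.05%. Sf3a1 (chr11:4160104-4160353, plus strand) and Sf3a2 (chr10:80798485-80798734, plus strand) show the ETS core of the SF3 group. Srsf5 (chr12:80945249-80945498, plus strand) and Srsf2 (chr11:116853095-116853344, minus strand) belong to the transcripts that were lowest in EVs relative to cells. Hnrnpa0 (chr13:58128557-58128806, minus strand) and Lsm11 (chr11:45944936-45945185, minus strand) belong to those that were highest. Sequences read 5′ to 3′ towards the gene, and capitals mark the ETS core and the CCAAT box, or their reverse complements. A match is a description of the letters and not a bound site.
Sf3a1: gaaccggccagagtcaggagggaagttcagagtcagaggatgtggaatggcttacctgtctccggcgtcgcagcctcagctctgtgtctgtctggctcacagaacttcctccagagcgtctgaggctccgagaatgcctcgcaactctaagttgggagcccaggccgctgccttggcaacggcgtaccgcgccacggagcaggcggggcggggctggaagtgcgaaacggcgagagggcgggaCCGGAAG
Sf3a2: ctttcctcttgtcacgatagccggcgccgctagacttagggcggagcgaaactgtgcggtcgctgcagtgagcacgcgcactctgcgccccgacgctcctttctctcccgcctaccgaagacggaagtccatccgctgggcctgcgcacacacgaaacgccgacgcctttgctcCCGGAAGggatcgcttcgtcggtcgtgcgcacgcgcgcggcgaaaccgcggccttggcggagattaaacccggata
Srsf5: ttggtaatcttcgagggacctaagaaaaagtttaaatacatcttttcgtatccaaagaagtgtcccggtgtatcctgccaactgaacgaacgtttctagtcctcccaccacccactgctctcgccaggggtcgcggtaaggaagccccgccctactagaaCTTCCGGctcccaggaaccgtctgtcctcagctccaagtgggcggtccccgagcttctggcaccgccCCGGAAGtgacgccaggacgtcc
Srsf2: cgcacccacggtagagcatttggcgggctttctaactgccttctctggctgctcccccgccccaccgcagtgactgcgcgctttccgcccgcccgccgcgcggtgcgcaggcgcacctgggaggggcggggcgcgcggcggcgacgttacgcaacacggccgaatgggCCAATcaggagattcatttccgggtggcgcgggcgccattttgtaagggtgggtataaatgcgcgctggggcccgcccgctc
Hnrnpa0: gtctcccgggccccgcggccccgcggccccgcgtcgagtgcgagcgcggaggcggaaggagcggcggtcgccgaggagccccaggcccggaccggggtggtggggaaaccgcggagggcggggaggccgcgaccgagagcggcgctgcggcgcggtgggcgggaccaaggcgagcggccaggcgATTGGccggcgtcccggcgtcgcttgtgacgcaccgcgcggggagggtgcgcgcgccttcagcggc
Lsm11: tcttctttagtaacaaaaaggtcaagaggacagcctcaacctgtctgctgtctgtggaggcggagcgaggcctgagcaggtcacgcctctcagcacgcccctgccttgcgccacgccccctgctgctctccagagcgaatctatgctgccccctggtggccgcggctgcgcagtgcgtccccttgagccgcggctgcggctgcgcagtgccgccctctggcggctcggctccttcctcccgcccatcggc

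Which of the members' transcripts were carried into EVs, and which stayed in the cells, was asked by comparing the 18 EV with the 18 cell libraries. The fit took these libraries as independent, although they come from 6 cultures. Standard errors, confidence intervals and p-values given for EVs against cells therefore do not take the culture as the unit of replication. Most members were lower in EVs. At an adjusted p under 0.05, 67 of the 80 were lower and 11 were higher, with 80.5% of the 15281 genes tested called in either direction, 42.2% lower and 38.4% higher. The median log2 fold change was -1.30 over the members and -0.08 over all genes tested. Across all 15281 genes the fold change was lower where the cell level was higher (Spearman's rho -0.50). The members were not compared with genes of like cell level, so the part of level in this gap was not tested. In 62 members the EV value lay below the cell value in all 6 cultures (34.8% of all genes did) and in 6 it lay above in all 6 (26%). For 40 members all 18 EV values were below all 18 cell values, against 14.8% of all genes, and for 1 member, Lsm11, all were above, against 9.04%. As a share of all counts, the members made up 0.723% ± 0.127 (SD, n = 18) of the cell libraries and 0.343% ± 0.111 (n = 18) of the EV libraries. In bulk libraries, fewer vesicles holding a transcript and less of it per vesicle cannot be told apart, and a scaled CPM is a share of the library's RNA, not an amount.

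**Figure D1:**
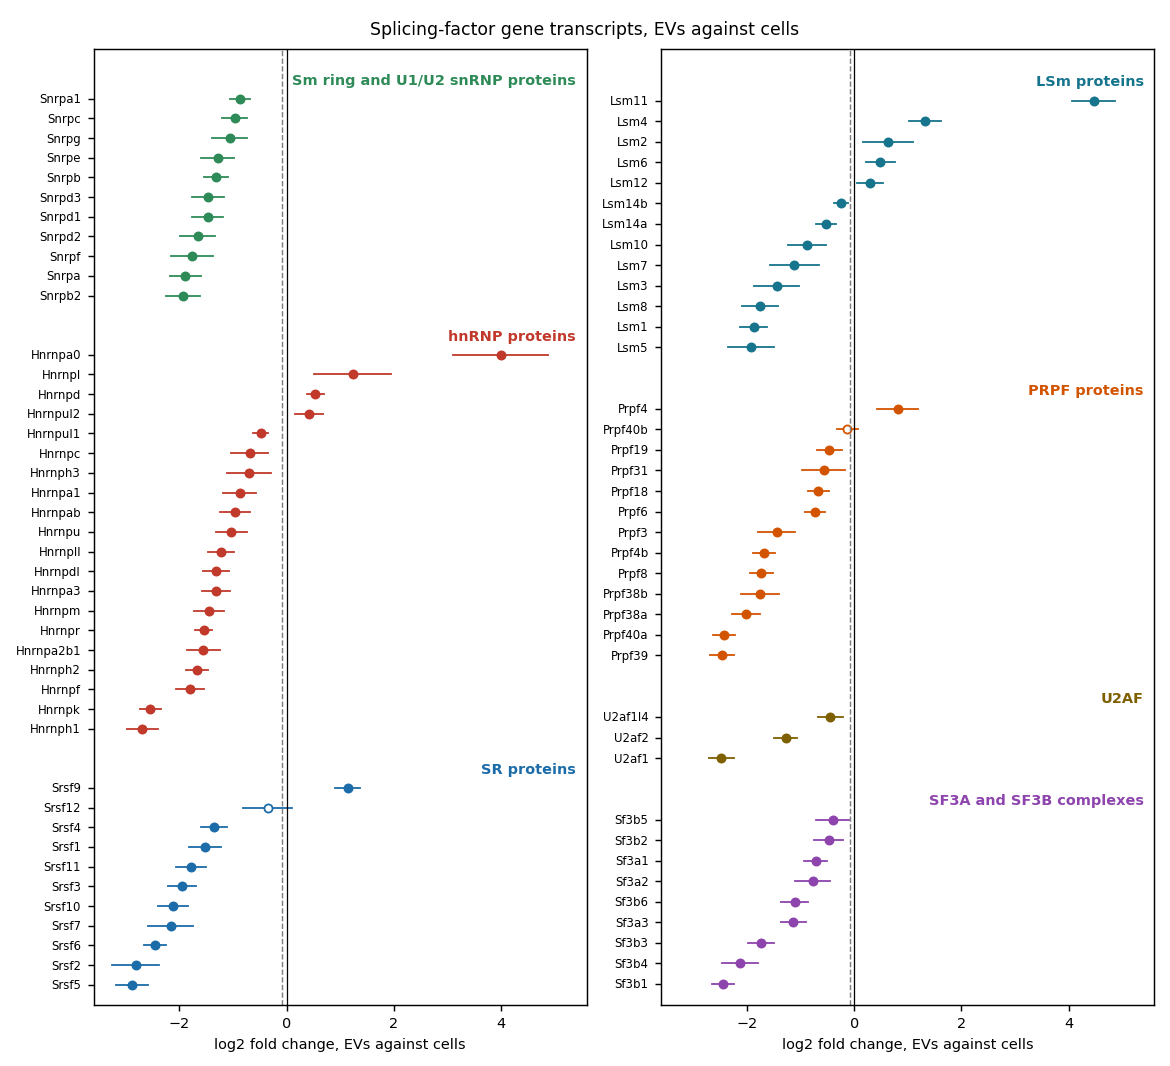
Log2 fold change of EVs against cells (horizontal axis, edgeR, 18 EV and 18 cell libraries) for each of the 80 members, with 95% confidence intervals and grouped by protein family, where filled points passed adjusted p 0.05, open points did not, and the dashed line is the median of all genes tested. Most members lie left of the dashed line, all 9 SF3, 3 U2AF and 11 Sm and U1/U2 snRNP genes lie left of 0, and Lsm11 and Hnrnpa0 stand far to the right at 4.47 and 3.99.

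All 11 genes of the Sm ring and of U1 and U2 snRNP proteins were lower in EVs, with a median log2 fold change of -1.47. Snrpb2, which encodes the U2B″ protein that binds U2 snRNA, had the lowest value of the group, -1.93, with 3.64, 8.72 and 13.3 CPM as the lowest, median and highest EV library against 20.9, 29.1 and 58.4 in cells, so that every EV value lay below every cell value. Snrpa1, its partner in the U2 snRNP, had the highest at -0.87. Snrpa, which encodes the protein that binds U1 snRNA, was at 0, 5.71 and 10.4 CPM in EVs and 15.1, 20.3 and 26.6 in cells (log2 fold change -1.89). The Sm ring genes named here differed by -1.32 for Snrpb (11.8, 25.4 and 34.6 CPM in EVs and 46.7, 60.2 and 115 in cells) and by -1.47 for Snrpd1 (3.32, 11.3 and 18.8 against 22.3, 29.1 and 47.3). In each of these 3 genes the EV and cell libraries did not overlap.

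All 9 SF3 genes were lower as well, with a median of -1.11 and a wide range within the complex. Sf3b1, the subunit that holds the branch point adenosine (chr1:55024318-55066673 on GRCm39, 24 exon blocks), had 33.9, 41.8 and 66.6 CPM as the lowest, median and highest EV library and 186, 250 and 309 in cells. The groups stood well apart, by -2.45 ± 0.104 (SE) on the log2 scale or 5.46-fold (adjusted p = 1.7e-21). Sf3a1, of the SF3A complex, differed by -0.72, with EV values of 13.3 to 31.1 CPM that overlapped the cell values of 27.6 to 46.8. Sf3b5, a small SF3B subunit, was nearest to 0 at -0.40 (adjusted p = 0.0147).

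The 3 genes of U2AF, the 3′ splice site factor, were all lower in EVs. U2af1, the small subunit that reads the terminal AG, had 3.55, 7.17 and 13.6 CPM in EVs and 27.3, 38.7 and 44.3 in cells (-2.48 ± 0.117, 5.57-fold, adjusted p = 3.6e-20). U2af2, the large subunit that binds the polypyrimidine tract, had 19.9, 26.5 and 33.6 CPM in EVs and 40.2, 63.7 and 91.7 in cells, and differed by -1.28. Neither subunit's groups overlapped, whereas the paralogue U2af1l4 differed by only -0.44.

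Among the 13 PRPF genes 11 were lower, 1 was higher and 1 did not pass the test, with a median of -1.45. Prpf39, a U1-associated factor, had the lowest value, with 6.01, 9.51 and 16.5 CPM in EVs and 44.7, 55.2 and 66.9 in cells (-2.47 ± 0.112, 5.52-fold, adjusted p = 1.1e-20). Prpf8, the U5 protein at the catalytic centre, differed by -1.74 (20.4, 29.8 and 49.5 CPM against 86.2, 107 and 152), and these 2 genes had no overlap between EVs and cells. Prpf19, the ubiquitin ligase of the complex that activates the spliceosome, differed by -0.47. Prpf4, a U4/U6 protein (chr4:62327000-62345252), was the gene that was higher, at 0.81 ± 0.187 (adjusted p = 1.8e-04), with EV values of 15.3 to 70.5 CPM overlapping cell values of 12.3 to 36.5. Prpf40b was not called at -0.13 (adjusted p = 0.201). Prpf31 was called at -0.57 (adjusted p = 0.00932), with 0.03 once pregnancy set 3 was left out.

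Of the 11 SR genes 9 were lower, 1 was higher and 1 did not pass, and the group had the lowest median of all, -1.96. Srsf5, an SR protein with paired RNA recognition motifs (chr12:80986436-80997630, 6 exon blocks), had 9.96, 16.2 and 34.7 CPM in EVs and 97, 137 and 188 in cells. Every EV library lay below every cell library, and the difference was -2.88 ± 0.146 or 7.39-fold (adjusted p = 2.2e-19). Srsf2, the SC35 protein of nuclear speckles (chr11:116740723-116744518, 2 exon blocks), had 3.39, 13.8 and 19.8 CPM against 35, 91.7 and 162 (-2.82 ± 0.216, 7.07-fold, adjusted p = 2.4e-14). Srsf3, the smallest SR protein and an mRNA export adaptor, differed by -1.96 (23, 35.4 and 44.3 CPM against 85.7, 120 and 223), again without overlap. Srsf1, which binds purine-rich exonic enhancers, differed by -1.53 (35.6, 58.6 and 105 CPM against 108, 155 and 320). Srsf7 differed by -2.16 with an overlap that came from the set 4 female 320 mg/dL EV library at 91.6 CPM, while its median was 19.9 CPM in EVs. Srsf9 was the SR gene that was higher in EVs, at 29.3, 52.5 and 76.9 CPM against 17.6, 22.9 and 31.9 in cells (1.14 ± 0.116, 2.2-fold, adjusted p = 3.9e-11). Srsf12 was not called at -0.35 (adjusted p = 0.149).

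The hnRNP genes were the more divided, with 16 of 20 lower, 4 higher and a median of -1.13. Hnrnph1, which binds G tracts (chr11:50267127-50277364), had 20, 32.9 and 66 CPM in EVs and 183, 225 and 346 in cells (-2.69 ± 0.141, 6.45-fold, adjusted p = 5.8e-19). Hnrnpk, a poly(C)-binding protein, had 27.2, 46.9 and 59.5 CPM in EVs and 187, 266 and 333 in cells (-2.55 ± 0.0952, 5.85-fold, adjusted p = 5.1e-23). In both genes the EV and cell groups lay far apart. Hnrnpa2b1, a protein known elsewhere for sorting small RNAs into vesicles, differed at the transcript level by -1.56 (56.3, 88 and 205 CPM against 238, 311 and 394). Its relative Hnrnpa1, a repressor of exon inclusion, differed by -0.88, with EV values of 20.4 to 68.4 CPM that overlapped cell values of 43.7 to 127. Hnrnpu, the nuclear scaffold hnRNP, differed by -1.03 (91.3, 166 and 362 CPM against 345, 432 and 483) and Hnrnpc, which binds uridine tracts, by -0.69 (40.7, 69.6 and 166 against 95, 129 and 152), both with overlap.

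Hnrnpa0, an AU-rich element binding hnRNP encoded by a gene without introns (chr13:58273693-58276370), ran the other way. Its EV libraries held 48.9, 1667 and 5838 CPM (lowest, median and highest) and its cell libraries 70.9, 116 and 192, a difference of 3.99 ± 0.434 on the log2 scale or 15.9-fold (adjusted p = 1.8e-10). The EV level varied far more than the cell level. At 0, 120 and 320 mg/dL it was 1711, 2268 and 2402 CPM in the set 3 female culture and 526, 1245 and 73.2 in the set 3 male culture. It was 48.9, 704 and 59.4 CPM in the set 4 female culture and 1023, 1624 and 1549 in the set 4 male culture. It was 3289, 3377 and 2806 CPM in the set 5 female culture and 4634, 5838 and 2682 in the set 5 male culture. The mean EV value therefore exceeded the mean cell value in 5 of 6 cultures on the log2 scale, and the 3 libraries below 100 CPM were all among the 6 with totals under 2 M. Without those 6 libraries the difference was 4.27. Hnrnpa0 made up 36.2% of all member counts in EVs (2.34% to 69.8% by library, n = 18) and 2.31% in cells, and without it the members' share of EV counts was 0.203% ± 0.0585 (n = 18) against 0.707% in cells.

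The LSm genes were split most evenly, with 8 of 13 lower, 5 higher and a median of -0.53. Lsm11 (chr11:45819091-45835787, 4 exon blocks), which belongs to the U7 snRNP that trims replication-dependent histone mRNAs, had 47.4, 157 and 259 CPM in EVs and 3.96, 6.53 and 10.6 in cells. The lowest EV library lay above the highest cell library, and the difference was 4.47 ± 0.198 or 22.2-fold (adjusted p = 5.7e-21), the largest rise in EVs of any member. Lsm4 (chr8:71125849-71135952), of the ring around U6 snRNA, had 18.7, 42.5 and 81 CPM against 13.5, 19.2 and 26.4 (1.32 ± 0.143, 2.49-fold, adjusted p = 1.9e-10). Lsm2, of the same ring, differed by 0.63 ± 0.233 (adjusted p = 0.0136), with 5.09 to 24.3 CPM in EVs and 4.01 to 20.6 in cells. Lsm5, a further ring subunit, was lowest at -1.92, with 0, 1.65 and 3.1 CPM against 4.2, 5.87 and 10.7. Subunits that assemble into 1 ring thus differed in direction at the transcript level.

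**Figure D2:**
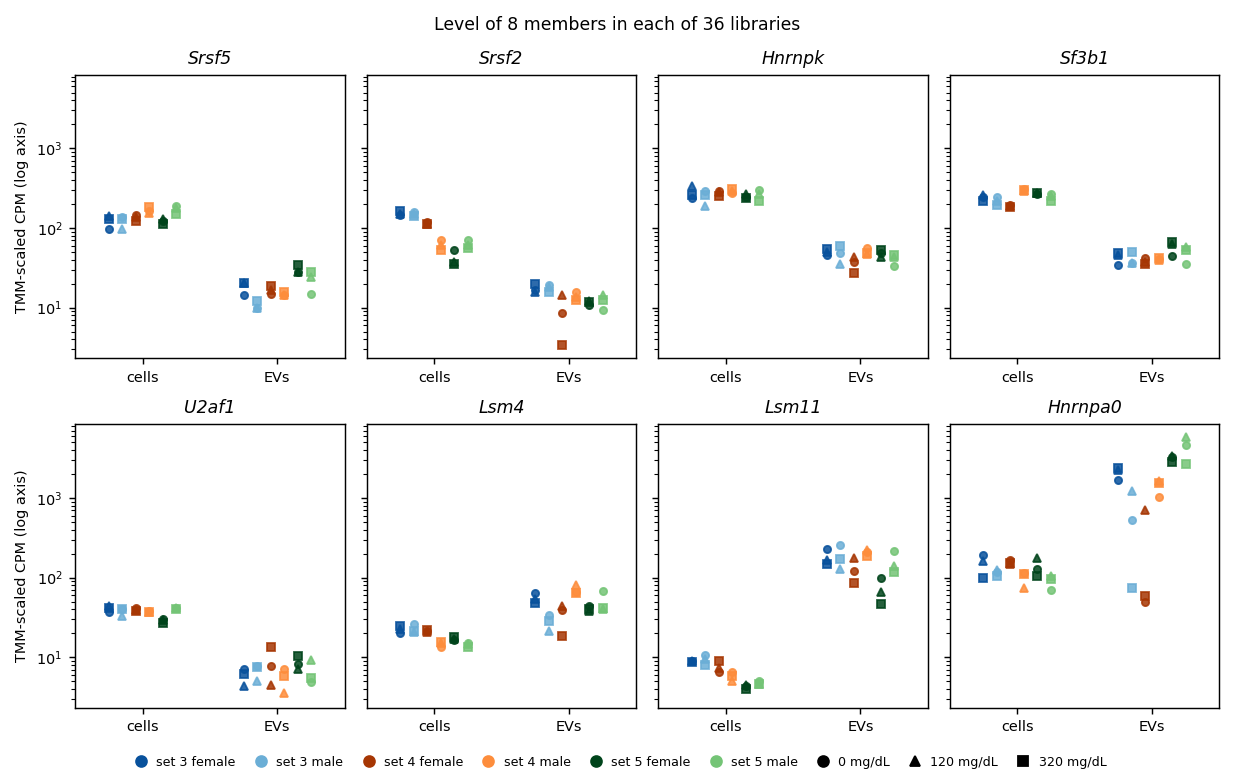
TMM-scaled CPM (vertical log axis) of Srsf5, Srsf2, Hnrnpk, Sf3b1, U2af1, Lsm4, Lsm11 and Hnrnpa0 in each of the 36 libraries, with cells and EVs side by side, colour for the culture and marker shape for the ethanol dose. Srsf5, Srsf2, Hnrnpk, Sf3b1 and U2af1 are separated downwards in EVs and Lsm11 upwards, while the EV values of Hnrnpa0 spread from 48.9 to 5838 CPM.

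How many members were higher in EVs depended on how libraries were scaled. Of the 11, Lsm11, Hnrnpa0, Lsm4 and Srsf9 were called higher under all 13 alternatives, and of the 67 that were lower, 56 were called lower in every alternative that tested them. Scaled by library totals alone, the median of all genes moved from -0.08 to -0.88, and 4 members were higher and 72 lower. Under that scaling Hnrnpl was at 0.49 (adjusted p = 0.223, against 1.23 ± 0.354 and adjusted p = 0.00197 with TMM), Prpf4 at 0.05 (0.856) and Lsm2 at -0.16 (0.561). The remaining members called higher with TMM were Hnrnpd at 0.54, Lsm6 at 0.48, Hnrnpul2 at 0.42 and Lsm12 at 0.29, which lie outside the rule for naming genes and were chosen after their values were seen. With library totals the direction turned and the call with it for Hnrnpd (-0.29, adjusted p = 0.0134), Hnrnpul2 (-0.41, 0.0102) and Lsm12 (-0.46, 0.0145), while Lsm6 stood at -0.27 (0.167). Relative to the median of all genes, the member median was -1.22 in the main comparison and between -2.96 and -0.95 in the alternatives.

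Other genes of the pathway, none of them members, were also mostly lower in EVs. Of 49 tested genes for other spliceosome components, 42 were lower in EVs and 3 higher (median -1.15, range -3.19 to 1.70). For SR-related proteins and SR kinases it was 17 lower and 2 higher of 23 (median -0.95), for other splicing regulators 21 lower and 5 higher of 27 (median -1.19), and for the exon junction complex and mRNA export 20 lower and 0 higher of 21 (median -0.99), all by edgeR and against 42.2% lower among all genes. In that last list 0 genes were also higher at an unadjusted p under 0.05 and 0 had a log2 fold change above 0.

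Levels can be compared between genes only per length of exon. The length used is the union of all annotated exons, such as 2678 bases for Hnrnpa0 and 23399 for Hnrnpr. Exons that are rarely used count in full, so the order depends on the annotation. Per kilobase of annotated exon, in cells, the most abundant member was Hnrnpa0 (46.6 CPM per kb), followed by Hnrnpu (36.7), Hnrnph1 (31.9), Srsf1 (30) and Hnrnpa2b1 (29.8), and Srsf12 (0.485), Prpf31 (0.682) and Lsm11 (1.05) were at the bottom. In EVs the order was led by Hnrnpa0 (744), Hnrnpl (57), Lsm11 (23.9) and Hnrnpu (18.2). A transcript near the bottom of the cell order, Lsm11, was therefore near the top of the EV order. Across the members, Spearman's rho between the log2 fold change and the mean cell level was -0.34 (n = 80), against -0.50 over all 15281 genes, and with exon length it was -0.10 (n = 80). These are descriptions over genes that share the same 36 libraries, and the CPM enter both axes.

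Whether ethanol changed these transcripts within the cells was asked with the culture as a block. None of the 80 members was called in cells at 120 mg/dL (0% of 17792 genes) or at 320 mg/dL (0.0393%) with edgeR. At 120 mg/dL, 3 members were lower and 0 higher at an unadjusted p under 0.05 (1.12% and 1.37% of all genes) and DESeq2 called 0. At 320 mg/dL, 13 members were lower and 0 higher at that level, or 16.2% lower against 4.5% of all genes (4.07% higher). DESeq2 called 1, Srsf6. The shares of all genes are from edgeR, so no share stands beside the DESeq2 calls. By direction alone 62 and 59 of the 80 were lower at the moderate and the high dose, with 54.8% and 51.6% of all genes lower, and the medians were -0.04 and -0.06 on the log2 scale. At 320 mg/dL the median standard error was 0.0777 for the members and 0.131 for all genes. A small change therefore passes an unadjusted p more easily among the members, and the 2 shares are not of like precision.

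The hnRNP genes were the most uniform group at 320 mg/dL in cells, with all 20 below 0 and a median of -0.12. SR genes were below 0 in 9 of 11 (median -0.09), PRPF genes in 11 of 13 (-0.10), SF3 genes in 7 of 9 (-0.11) and U2AF genes in 3 of 3, whereas 7 of 11 Sm and U1/U2 snRNP genes (0.03) and 8 of 13 LSm genes (0.04) were above 0. None of these genes passed the adjusted test. Of the genes named by rule that were lower, Srsf2 was at -0.24, Prpf8 at -0.23, Hnrnph1 at -0.20, Hnrnpu at -0.15 and Sf3b1 at -0.13. The Prpf8 controls include the set 3 female library at 152 CPM, with the next at 115. Others named by rule were higher, such as Srsf12 with a mean of 1.82 CPM in controls and 2.1 at 320 mg/dL. Hnrnpu had 402, 452 and 483 CPM as the lowest, median and highest of the 6 control cell libraries and 345, 413 and 449 at 320 mg/dL, so the groups overlapped. Srsf6, an SR protein outside the naming rule that was chosen after its values were seen, had 101, 136 and 153 CPM in controls, 90.7, 124 and 145 at 120 mg/dL and 88.8, 113 and 138 at 320 mg/dL. It was lower in 6 of 6 cultures at the high dose, by -0.21 ± 0.0516 (n = 6), with an adjusted p of 0.265 in edgeR and 8.5e-04 in DESeq2. Hnrnpm, chosen likewise, went from 126, 140 and 150 CPM to 110, 121 and 139 (-0.17). The count of members below the median of all genes at 320 mg/dL was 59 under each of 4 scalings. That count could hardly differ, since scaling moves all genes of a library alike.

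In EVs the differences from control were larger and more scattered than in cells. At 120 mg/dL none of the 78 members tested was called (0.00842% of 11880 genes), at 320 mg/dL none (0.0842%), with Lsm5 and Srsf12 too low to be tested. At an unadjusted p under 0.05 there were 5 higher and 1 lower at 120 mg/dL (2.5% and 3.76% of all genes), with 0 DESeq2 calls, and 11 higher and 3 lower at 320 mg/dL (14.1% and 3.85%, against 4.87% and 7% of all genes), with 2 DESeq2 calls, Lsm11 and Prpf4. Here too the shares of all genes are from edgeR, and none stands beside the DESeq2 calls. At the high dose 56 of 78 members were above 0 (51.8% of all genes were), with a median of 0.12 against 0.01. The hnRNP genes were above 0 in 17 of 20 (median 0.19), SF3 in 7 of 9 (0.22), PRPF in 10 of 13 and Sm and U1/U2 snRNP in 8 of 11, while LSm genes were above 0 in 5 of 12 (-0.08). Scaled by library totals, all genes moved by a median of -0.239 and 24 members were above 0 and 54 below. Relative to the median of all genes, 54 to 55 of the 78 lay above it in each of the 4 scalings. Scaling moves all genes of a library alike, so this count could hardly differ between scalings and is no separate check. The median standard error in EVs at 320 mg/dL was 0.173 for the members and 0.195 for all genes.

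**Figure D3:**
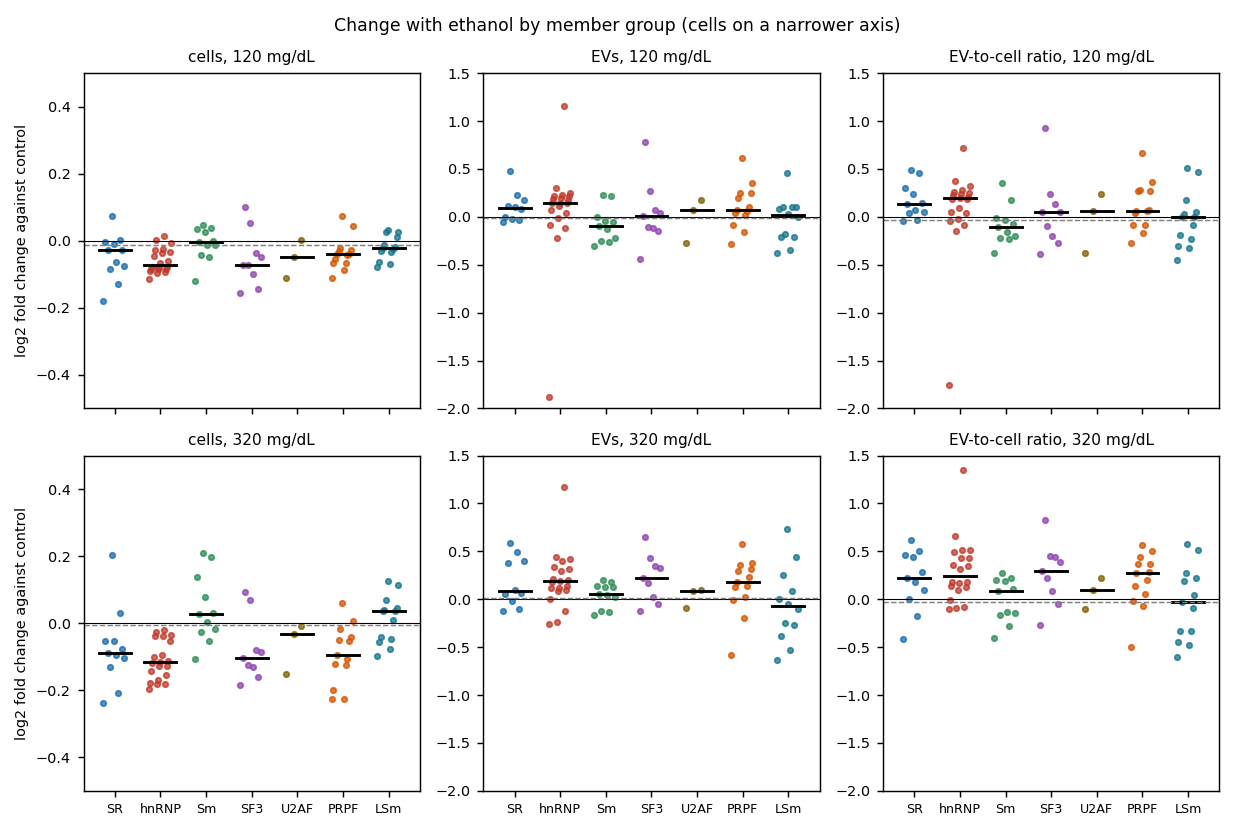
Log2 fold change of each member at 120 and 320 mg/dL against control by protein group, in cells, in EVs and for the EV-to-cell ratio, where points are genes, black bars are group medians and dashed lines are medians of all genes tested (the cell panels have a narrower axis). All 20 hnRNP genes lie below 0 in cells at 320 mg/dL and 17 of 20 lie above 0 in EVs at that dose, and edgeR with the filter on low counts called none of the members at adjusted p 0.05.

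Lsm11 and Prpf4, both higher in EVs than in cells, were the members that were lower in EVs at the high dose by DESeq2. Lsm11 had 99, 212 and 259 CPM as the lowest, median and highest control EV library and 47.4, 134 and 188 at 320 mg/dL. It was lower in 6 of 6 cultures, by -0.64 (95% confidence interval -1 to -0.27, edgeR adjusted p = 0.146), although the groups overlapped. Prpf4 had 25, 48.1 and 70.5 CPM in controls and 15.3, 34 and 40.9 at 320 mg/dL, lower in 6 of 6 cultures by -0.59 (adjusted p = 0.18). Lsm4, the other LSm gene with a difference at an unadjusted p under 0.05, was at -0.38.

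Members above their control in EVs included SR and SF3 genes. Srsf5 had 9.99, 14.7 and 28 CPM in control EVs and 12, 19.4 and 34.7 at 320 mg/dL, higher in 6 of 6 cultures by 0.40 (adjusted p = 0.197). Srsf10, an SR protein chosen after its values were seen, had 11.7, 14.1 and 16.9 CPM and 14.9, 20.3 and 33.9 (0.58, adjusted p = 0.188). Sf3a2, chosen likewise, had 2.05, 3.24 and 6.89 CPM and 3.39, 6.68 and 9.91, and was higher in 6 of 6 cultures at both doses, by 0.78 at 120 mg/dL (adjusted p = 0.693) and 0.65 at 320 mg/dL (0.22). Control and treated groups overlapped in all 3 genes. Hnrnpa0 was higher than control in 6 of 6 cultures at 120 mg/dL (1.16, adjusted p = 0.793), as its values above show. Sf3b1 and Hnrnpa2b1 were at 0.35 and 0.42 at the high dose without an adjusted call.

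Hnrnpl, which binds CA repeats (chr7:28507966-28521693), had the widest swings between doses. Its exons overlap those of Gm57249 and Gm73595 on the opposite strand, whose reads can be told apart only if strand was counted, while no such overlap is annotated for Hnrnpa0, Lsm11 or Prpf4. At 0, 120 and 320 mg/dL its EV level was 922, 64.6 and 851 CPM in the set 3 female culture and 255, 66.4 and 271 in the set 3 male culture. It was 147, 143 and 265 CPM in the set 4 female culture and 542, 48.8 and 816 in the set 4 male culture. It was 72.8, 76 and 1560 CPM in the set 5 female culture and 133, 61.3 and 543 in the set 5 male culture. The moderate dose was thus below control in 5 of 6 cultures, though hardly so in the set 4 female culture (147 and 143 CPM). The high dose was above control in 5 of 6, while all 18 cell libraries lay between 96 and 153 CPM. The difference from control was -1.88 at 120 mg/dL (95% confidence interval -3.08 to -0.68, adjusted p = 0.747) and 1.17 at 320 mg/dL (adjusted p = 0.419). With no filter on low counts, edgeR called both, at -1.90 (adjusted p = 1.9e-09) and 1.15 (0.00269). No other alternative, DESeq2 without a filter among them, called Hnrnpl in EVs at either dose. Dose accounted for 63.7% of the variance of its EV log2 CPM, against a median of 8.04% over the members.

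**Figure D4:**
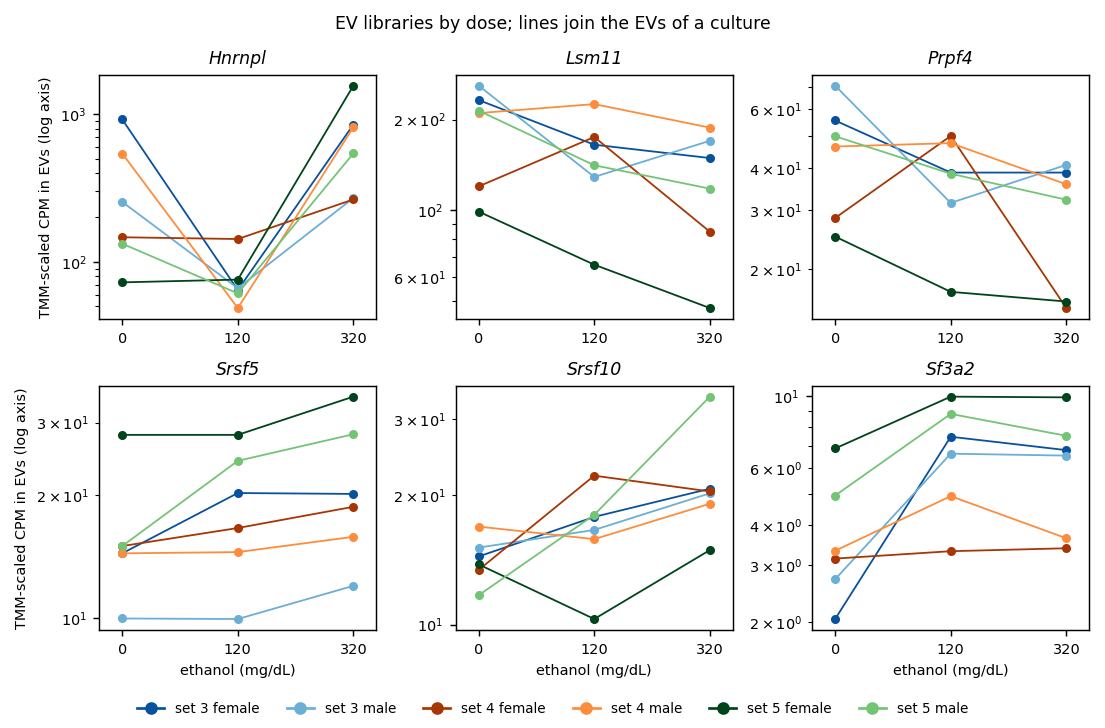
TMM-scaled CPM (vertical log axis) in EVs at 0, 120 and 320 mg/dL for Hnrnpl, Lsm11, Prpf4, Srsf5, Srsf10 and Sf3a2, with lines joining the EV libraries of a culture. Hnrnpl dips at 120 mg/dL to a median of 65.5 CPM from 201 in controls and stands at 680 at 320 mg/dL, and Lsm11 and Prpf4 end lower at 320 mg/dL than in controls in all 6 cultures.

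The EV-to-cell ratio compares the EVs with the cells that shed them in the same flasks. The median log2 ratio over the 80 members was -1.41 in controls, -1.36 at 120 mg/dL and -1.23 at 320 mg/dL (medians over 6 cultures, with ranges of -2 to -0.78, -1.66 to -0.80 and -1.61 to -0.69). Between 61 and 72 members lay below 0 in every culture and dose, so most members were lower in EVs at each dose. No member's ratio differed from control at 120 mg/dL (0.00534% of 18728 genes) or 320 mg/dL (0%) with edgeR, nor with DESeq2. The fit pairs each EV library with its cells and takes no account of differences in ratio between cultures, and with a location by culture term added, edgeR also called 0 members at either dose and 2 and 0 of all genes. At an unadjusted p under 0.05 there was 1 higher and 1 lower at 120 mg/dL (0.545% and 0.358% of all genes) and 2 higher and 0 lower at 320 mg/dL (0.582% and 0.614%). Hnrnpl was at -1.76 (95% confidence interval -2.99 to -0.53) and 1.35 (0.09 to 2.61), and Sf3a2 at 0.93 and 0.83, each with an adjusted p of 1. At 320 mg/dL 56 of 80 ratios were above 0 (47% of all genes), with medians of 0.30 for SF3, 0.27 for PRPF, 0.25 for hnRNP and 0.22 for SR genes and -0.03 for LSm genes. This ratio is built from the EV and cell values given above, shares their controls, and is no separate evidence. In simulated data its test recovered 0 of 200 genes changed 2-fold, so 0 calls do not show that the ratios were unchanged.

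Within cells, the levels varied with the culture of origin far more than with ethanol. The culture accounted for a median of 76.7% of the variance of a member's log2 CPM and dose for 2.15%, close to the 76.9% and 2.33% of all genes, and in EVs the shares were 57.2% and 8.04% (51.2% and 6.53%). These shares are not corrected for the number of groups, and 6 cultures can take up more variance than 3 doses without any effect. Prpf4 (97.1%), Lsm2 (97%), Srsf1 (96.1%) and Srsf2 (96%) followed the culture most closely in cells, and Prpf8 (22.1%) least. Srsf2 at 0, 120 and 320 mg/dL had 145, 151 and 162 CPM in the set 3 female culture and 161, 149 and 141 in the set 3 male culture. It had 118, 113 and 113 CPM in the set 4 female culture, against 70.8, 62 and 53.6 in the set 4 male culture. It had 53.1, 37.2 and 35 CPM in the set 5 female culture and 70.2, 61.7 and 55.8 in the set 5 male culture. Set 3 cultures were thus highest at every dose, and the set 4 female culture stood between them and the other three.

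The same order recurred in other members that follow the culture. Lsm2 had 12.3 to 20.6 CPM in the set 3 cells, 9.92 to 10.3 in the set 4 female cells and 4.01 to 5.04 in the remaining cultures, which did not overlap with these. Srsf1 had 218 to 320 CPM in the set 3 cells, 182 to 194 in the set 4 female cells and 108 to 127 in the remaining cultures. Sf3b1 did not follow this order. Pregnancy, passage and the time at which each set was grown cannot be told apart in this design.

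**Figure D5:**
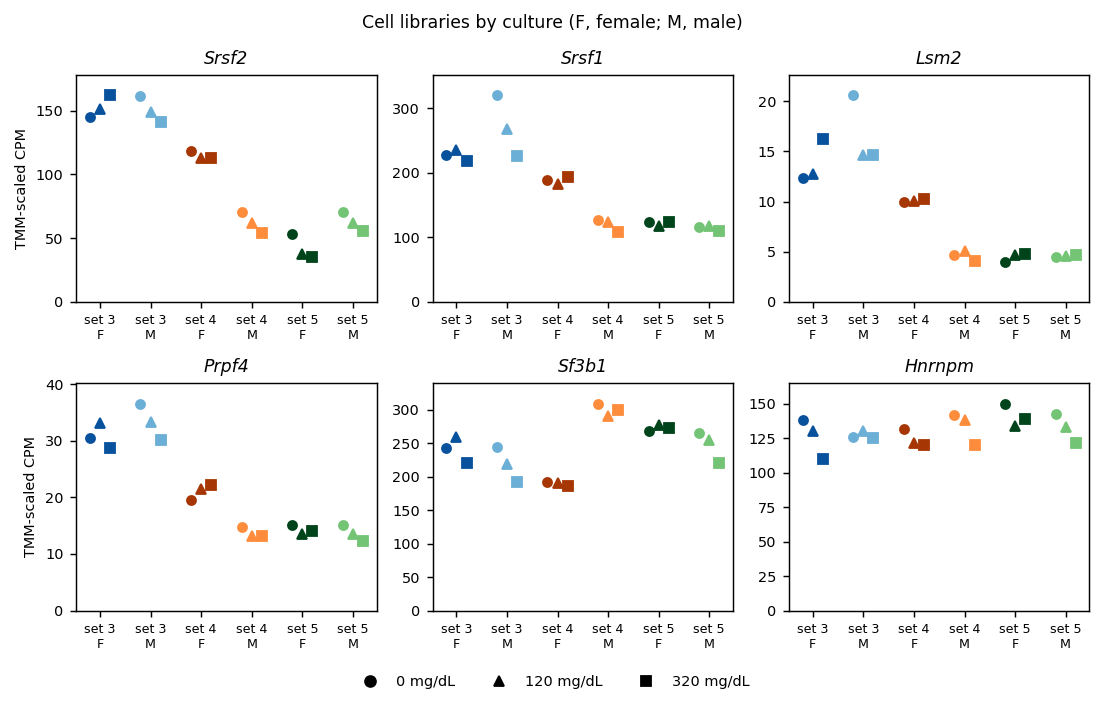
TMM-scaled CPM in cell libraries (vertical axis from 0) of Srsf2, Srsf1, Lsm2, Prpf4, Sf3b1 and Hnrnpm in each of the 6 cultures, with marker shape for the ethanol dose. The set 3 cultures are highest for Srsf2, Srsf1, Lsm2 and Prpf4, with the 3 doses of a culture close together, whereas for Hnrnpm dose (44% of the variance) separates the libraries more than culture (32.1%).

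Female and male cultures were compared within EVs and within cells with a term for dose, which takes the 3 libraries of a culture as independent. In EVs, 74 members could be tested, since Lsm5, Lsm10, Prpf31, Sf3b4, Snrpf and Srsf12 were too low, and 2 were called (11.1% of 11037 genes were). Hnrnph1 was higher in female EVs by 0.64 ± 0.204 (adjusted p = 0.0498), with means of 40.9 and 23.3 CPM in the female and male culture of set 3, 31 and 26.8 in set 4 and 60.5 and 41.3 in set 5. Lsm2 was lower in female EVs by -0.51 ± 0.162 (adjusted p = 0.0488), with 14.1 and 16.3, 10.2 and 20, and 8.98 and 14.1 CPM. Both kept their direction in 3 of 3 pregnancies. In cells 1 of 80 members was called (5.83% of 17052 genes), Prpf39, lower in females by -0.28 ± 0.0715 (adjusted p = 0.0301), with 51.7 and 57.5, 51.4 and 57.6, and 47.3 and 62.4 CPM in sets 3, 4 and 5.

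With the pregnancy as a block, 18 members were called between the sexes in EVs (14 higher and 4 lower in females, 27.1% of all genes called) and 4 in cells (2 and 2, 17.3%). Leaving out set 3 without the block gave 9 calls in EVs with the opposite balance, 2 higher (Hnrnpc and Prpf39) and 7 lower (Lsm2, Lsm6, Lsm11, Lsm12, Prpf4, Prpf19 and Srsf9), so the balance of member calls between the sexes was not stable. The share of all genes called in each direction without set 3 is not given here, so whether the members differed from it was not tested. When the 3 libraries of a culture were added up, so that each culture enters once, edgeR called 0 members in EVs or in cells. With the 3 libraries kept apart, 16 members were higher and 3 lower in female EVs at an unadjusted p under 0.05 (17.1% and 14% of all genes), and 2 were higher and 4 lower in female cells (10% and 12.3%). All 10 tested Sm and U1/U2 snRNP genes were above 0 in female EVs (median 0.25) and 9 of 11 LSm genes below (-0.17), where 50.6% of all genes were above and 49.4% below, but with 3 cultures a sex the direction rests on 3 pairs.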

How the data were processed

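Reads were trimmed with Trimmomatic and deduplicated by the authors, aligned with STAR to mm39 and assigned to genes with HTSeq. The deposited values are whole counts per gene and library without normalization (40205 features, 36 libraries, no 2 identical). The strand setting of the counting and the annotation release are not given in the sources used here, and 52 of the 80 members overlap an exon on the opposite strand, so that reads of such partners may be mixed. The libraries were made with a stranded kit. No new alignment was made.

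The main tool was edgeR 4.0.16 in R 4.3.3, applied to the counts (filterByExpr with minimum count 10 and minimum total 15, TMM scaling, quasi-likelihood F tests, Benjamini-Hochberg adjusted p under 0.05 over all genes tested) and, as an alternative, DESeq2 1.42.0 without a filter on low counts. limma 3.58.1 and jsonlite 2.0.0 supported the fits, and figures were drawn with Python 3.11.15 and matplotlib 3.10.9. The EV against cell fit held sex and dose as covariates. Ethanol doses were compared within each location with the culture as a block, and the EV-to-cell ratio with a location by dose term and the pair of libraries as a block. Sexes were compared with a term for dose. CPM are TMM-scaled, and log2 CPM carry a prior count of 1. Replicates are cultures, 3 per sex, and the 3 doses of a culture are not independent in the comparisons of EVs with cells and of the sexes.

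Members and lists were chosen with earlier results of these data known, so no p is adjusted over the members. Named genes (38) were well-known members of each family, up to 3 called members with the largest change in each direction of each comparison with the same sign in all cultures or pregnancies, the highest and lowest member of each family for EVs against cells, and any member not tested. Genes outside this rule are identified as chosen after their values were seen.

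The pairing comes from the labels, which give EVs and cells the same culture and the sexes the same pregnancy. Deviations from group means correlated with a median of 0.0719 between EV and cell libraries (4 of 18 pairs over 0.1), 0.191 and 0.21 between EVs at 120 or 320 mg/dL and their control, 0.715 and 0.621 in cells, and 0.106 and 0.376 between the sexes in EVs and cells. In simulated data with 200 genes changed 2-fold, the tests recovered 68% for EVs against cells, 78.5% for cells and 58.5% for EVs at 320 mg/dL, 0% for the ratio, and 58.5% and 57% for the sexes in EVs and cells. For EVs against cells and for the sexes, the simulated libraries held no culture effect. The 200 changed genes were also few beside the 80.5% of genes called for EVs against cells. The shares for those comparisons therefore do not measure how the tests perform on the real data. Positions follow GENCODE vM39 on GRCm39, the build of the counts, and promoters RefSeq on GRCm38.p6. Alternatives covered scaling, filter, tool, blocks, thinned counts and each pregnancy left out, and leaving out EV libraries under 2 M counts was chosen after seeing the data.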

Additional observations from a re-analysis of the deposited data

Results flagged for a closer look

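The results listed here are those in which 1 of the 6 libraries of a dose lay far from the other 5 on the log2(CPM + 0.5) scale. Its gap to the nearest library, as a share of the whole range of the 6 exceeded Dixon's limit. Of 228 groups tested (38 named members, EVs and cells, 3 doses), 17 did so, or 7.46%, and chance alone gives about 5%.

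The set 4 female EV library at 320 mg/dL, with 1.55 M counts and 0.0849% of them in members, was the library in 7 of these. It was lowest for Srsf2 (3.39 CPM, next 11.6, gap 0.687), Hnrnpk (27.2, next 46.1, 0.673), Hnrnpa1 (20.4, next 41.3, 0.639), Lsm10 (0, next 2.09, 0.718), Sf3b5 (6.79, next 12.6, 0.718) and U2af1l4 (1.7, next 5.47, 0.742), and highest for Srsf7 (91.6, next 26.8, 0.653). The set 3 male EV library at 120 mg/dL, the shallowest at 0.959 M, was lowest for Snrpd1 (3.32 CPM, next 9.97, gap 0.794) and Prpf31 (0, next 2.58, 0.75). In control EVs, the set 5 female library was highest for Hnrnpu (310 CPM, next 174, gap 0.665) and U2af2 (32.7, next 25.2, 0.698) and the set 5 male library lowest for U2af1 (4.93, next 7.18, 0.739). In EVs at 320 mg/dL, the set 3 male library was lowest for U2af2 (20.2 CPM, next 26.3, gap 0.634).

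In cells, Hnrnpa0 was highest in the set 4 female culture at 320 mg/dL (153 CPM, next 112, gap 0.665), Hnrnpc lowest in the set 3 male culture at 120 mg/dL (95, next 128, 0.672), Prpf8 highest in the set 3 female control (152, next 115, 0.717) and U2af1 lowest in the set 5 female culture at 320 mg/dL (27.3, next 37, 0.705). The part of depth in these differences was not tested.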

How the results depend on the processing

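Between EVs and cells, 60 (counts thinned to the smallest library, 70 members tested) to 78 members were called, 73 to 77 when a pregnancy was left out, 76 with the replicate block of library pairs, and 78 (9 higher, 69 lower) without the 6 shallow EV libraries. Of 488 values of named members under an alternative, 464 kept direction and call, 18 lost it, 3 gained it and 3 changed sign, namely Lsm2 (-0.16, library totals), Prpf31 (-0.987 to 0.0307 leaving out a pregnancy, 0.0307 without set 3) and Sf3b5 (0.0207, thinned). Ethanol calls in cells at 320 mg/dL rose from 0 to 1 with DESeq2. In EVs they rose from 0 to 1 at 120 mg/dL with no filter, and at 320 mg/dL to 2 with DESeq2, 1 with no filter, and 0 to 2 when a pregnancy was left out (Lsm11 at -0.79, adjusted p = 0.0395, and Prpf4 at -0.65, adjusted p = 0.0422, without set 4). The ratio gave 0 calls without the replicate block too. For the sexes, EVs gave 0 calls with library totals, 1 with no filter, 18 with the pregnancy as a replicate block, 0 with summed counts, and 0 to 9 when a pregnancy was left out (9 without set 3, of which 2 higher and 7 lower in females). The member median minus that of all genes was 0.155, and between -0.36 (DESeq2) and 0.22 (without set 4) in the alternatives. Cells gave 2 with library totals, 2 with DESeq2, 4 with the block, 0 with summed counts, and 0 to 4 when a pregnancy was left out (4 without set 3). The block changed no other call count by over 1.5 times. The cause of these shifts was not tested. The call counts in this section are of members alone, without the share of all genes called under the same setting. EV totals, at most 5.51 M, limit the low members most.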
